A study of Homo sapiens with 12 samples.

Results

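Mast cells receive signals from T cells, epithelial cells and other leukocytes through cytokine receptors, and the RNA of 10 of their chains was followed across the sublines of the human mast cell line HMC-1. The chains were listed by gene symbol with earlier results of these data known, so the counts called among them describe this list only. From the IL-2 receptor family came IL2RA, IL2RG, IL4R, IL7R and IL9R, and from the IL-1 receptor family IL1RL1 and IL18R1. IL3RA, CSF2RA and CSF2RB belong to the IL-3 and GM-CSF receptors. They were matched to 13 identifiers among the 58381 in the deposited tables, because IL3RA, IL9R and CSF2RA lie in a pseudoautosomal region and each has an X and a Y identifier. All 45 Y identifiers in the tables carried the same expected counts as their X copies in all 12 libraries, within 0.01 counts. A value given for IL3RA, IL9R or CSF2RA is therefore that of the X identifier, and the sum over both is 2 times as large.

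HMC-1 is an established line from a patient with mast cell leukemia. HMC-1.1 cells carry V560G-KIT, a change in the juxtamembrane region of the stem cell factor receptor, HMC-1.2 cells carry V560G-KIT together with D816V-KIT of the kinase domain, and HMC-1.3 cells were derived from HMC-1.2 by CRISPR/Cas9 repair of V560G, which leaves a monoallelic D816V. All 4 groups thus carry at least 1 activating KIT change. Cells of these groups, with HMC-1.3 as clone 1 and clone 2, were kept for 72 h in the same serum-containing medium, for which the methods name no added cytokine, and polyadenylated RNA of 3 cultures each was sequenced. Each HMC-1.3 group is 1 edited clone, so the KIT genotype and the isolation of a single clone cannot be told apart. By the methods, the edited cells also passed puromycin selection, and the repair template held a silent KIT change. HMC-1.1 is a separate subline, so its KIT genotype and its other differences from HMC-1.2 cannot be told apart either. The p-values measure the spread between cultures of 1 line.

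The chains work in shared complexes. The common gamma chain, encoded by IL2RG, is part of the IL-2, IL-4, IL-7 and IL-9 receptors and recruits JAK3. IL4R, IL7R and IL9R recruit JAK1, and STAT5 or STAT6 carry the signal to the nucleus. IL1RL1, also called ST2, binds IL-33, IL18R1 binds IL-18, and each needs an accessory chain, IL1RAP or IL18RAP, to signal through MYD88 and the IRAK kinases. CSF2RB, the beta common chain, signals for the ligand-binding alpha chains of GM-CSF (CSF2RA), IL-3 (IL3RA) and IL-5 (IL5RA). In mast cells IL-33 drives cytokine release, IL-4 and IL-9 shape growth and maturation, and IL2RA (CD25) on the cell surface is a diagnostic marker of neoplastic mast cells.

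The libraries held 29225900 to 43181402 expected counts, which are RSEM estimates of fragments per gene. All 13 identifiers passed the filter on low counts, as did 15944 identifiers in all. KIT, the edited gene, gave 414 ± 7.89 FPKM in HMC-1.1, 356 ± 8.55 for HMC-1.2, 450 ± 21.4 for clone 1 and 405 ± 6.83 for clone 2 (SD, n = 3). FPKM correct the fragment count for the length of the transcript and for depth, and the KIT genotype cannot be read from them. CPM are counts corrected for depth and by TMM factors, and not for transcript length. Of 9 mast cell markers all 9 were tested, with a summed level of 4050 to 4130 CPM in HMC-1.1. The sum was 4680 to 4730 for HMC-1.2, 4160 to 4250 for clone 1 and 4110 to 4210 for clone 2. MS4A2, the beta chain of the IgE receptor, stayed at or below 23 counts in every library, and FCER1A, its alpha chain, at or below 46. None of the 4 T cell markers passed the filter, with at most 8 counts of any of them, and their sum lay between 0.0284 and 0.264 CPM. CD3D was at 0 in all libraries of HMC-1.1 and of both clones.

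Relative to HMC-1.2, most of the chains were lower in the edited clones and in HMC-1.1, and IL9R was higher. Genes were called where the adjusted p was below 0.05 and the fold exceeded 1.5, by edgeR's quasi-likelihood test over all genes tested. In clone 1, 7 of the 10 chains were called, against 20.0% of all genes tested, 1 of them higher (11.8% of all genes) and 6 lower (8.18%). In clone 2, 6 chains were called (16.5% of all genes), 1 higher (7.98%) and 5 lower (8.51%). In HMC-1.1, 6 chains were called (17.6% of all genes), 1 higher (10.1%) and 5 lower (7.52%). The median log2 fold change over the 10 chains was -0.72, -0.63 and -0.58 for clone 1, clone 2 and HMC-1.1, and over all genes tested it was 0.01, -9.1e-05 and 0.01. These comparisons share the 3 HMC-1.2 libraries. IL2RG, IL2RA, IL7R and IL1RL1 were called lower in all 3 comparisons, IL9R was called higher in all 3, IL18R1 and IL3RA were called in some of them, and IL4R, CSF2RA and CSF2RB in none. The CPM of the groups compared did not overlap for 10 chains in clone 1, 7 for clone 2 and 9 for HMC-1.1, where 64.2%, 56.0% and 59.9% of all genes tested did not overlap, so that groups without overlap were common among all genes.

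**Figure D1:**
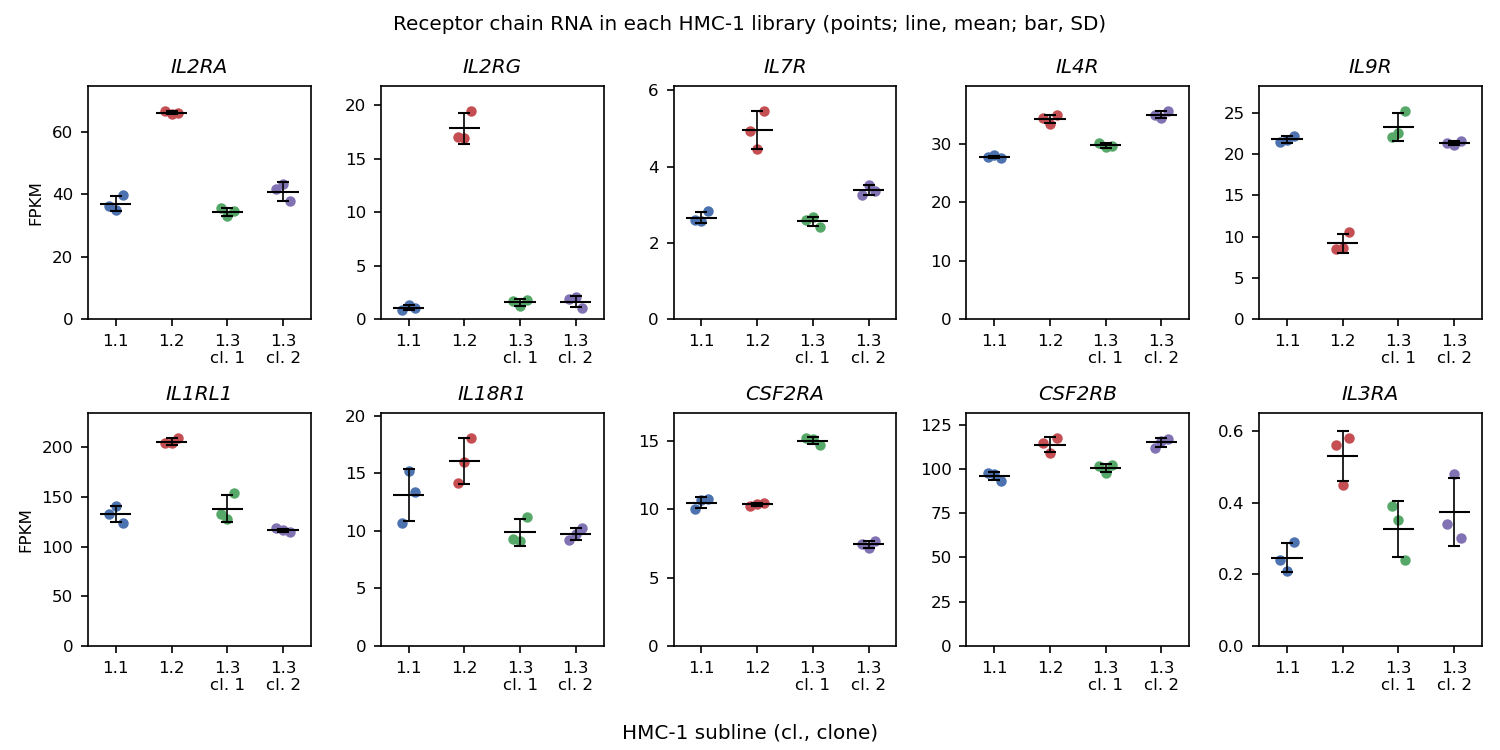
FPKM of each receptor chain (vertical axes, each from 0) in the 3 libraries of each HMC-1 subline (points), with the mean (line) and SD (bar). IL2RG stands at 17.0 to 19.5 FPKM in HMC-1.2 and at 2.03 or below elsewhere, IL9R is lowest in HMC-1.2, and CSF2RA is highest in clone 1 and lowest in clone 2.

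The level of some markers of other cells moved with the same contrast. Of 4 eosinophil and basophil granule genes, 3 were tested, CLC, PRG2 and EPX, and these 3 were called lower than in HMC-1.2 in each other group. Of all genes tested, 8.18%, 8.51% and 7.52% were called lower for clone 1, clone 2 and HMC-1.1. EPX had only 2 to 15 counts outside HMC-1.2. The 4 genes summed to 334 to 354 CPM in HMC-1.2, 60.0 to 69.2 for HMC-1.1, 62.1 to 69.0 for clone 1 and 30.4 to 35.2 for clone 2, and RNASE3 had at most 8 counts. Of 3 monocyte markers only FCGR1A was tested, and their sum was 1.80 to 2.78 CPM in HMC-1.2 and at most 0.720 CPM elsewhere. CD14 had at most 5 counts and CSF1R at most 8. Of 3 B cell markers only CD79A was tested, the sums ran from 0.162 to 0.641 CPM, and MS4A1 had at most 2 counts. Of the 9 mast cell markers, 5 were called in each comparison with HMC-1.2, 4 lower and 1 higher. The share of all genes called was 20.0%, 16.5% and 17.6% for clone 1, clone 2 and HMC-1.1. The tryptase gene TPSAB1 (log2 -3.83, -4.41 and -4.07), TPSB2 and MS4A2 were lower in all 3 comparisons. Counts of TPSAB1 and TPSB2 were not all whole numbers, as some reads were divided between genes, so their separate values are less certain. FCER1A was lower in clone 1 and HMC-1.1, and HPGDS in clone 2. The carboxypeptidase gene CPA3 was the marker called higher (1.21, 1.77 and 1.2). The part of these genes in the receptor results was not tested. In bulk RNA, fewer cells that express a chain and less RNA per cell cannot be told apart.

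IL2RG showed the largest change among the 10 chains. With values of replicates 1 to 3 in order, here and for the other chains, the HMC-1.2 libraries gave 17.1, 16.95 and 19.5 FPKM. HMC-1.1 gave 0.89, 1.31 and 1.03, clone 1 gave 1.73, 1.18 and 1.74, and clone 2 gave 1.84, 2.03 and 1.04. Every HMC-1.2 library thus lay far above every other library, and the other 3 groups overlapped each other. The expected counts behind these values were 677 to 814 for HMC-1.2 and 39 to 68.6 in the other libraries. IL2RG's log2 fold change was -3.96 ± 0.13 (SE) for clone 1 (adjusted p = 8.1e-14), -3.81 ± 0.13 for clone 2 (adjusted p = 1.0e-13) and -4.26 ± 0.13 for HMC-1.1 (adjusted p = 4.8e-14). Clone 1 and clone 2 were not distinguished (log2 -0.14 ± 0.17, adjusted p = 0.50). IL2RG lies on chrX:71107404-71112108 of GRCh38, on the minus strand, and a readthrough gene on the same strand, RP5-1091N2.12, overlaps it with 0 to 26.3 counts per library. With its counts added to those of IL2RG, the chain was called lower in all 3 comparisons.

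IL2RA, the private alpha chain that raises the affinity for IL-2, was lower than in HMC-1.2 by a smaller factor. It gave 66.7, 65.8 and 66.1 FPKM in HMC-1.2, against 36.1, 35.0 and 39.7 for HMC-1.1. Clone 1 had 35.6, 33.1 and 34.5 FPKM and clone 2 had 41.5, 43.4 and 37.7. HMC-1.2 stood above all other libraries, while HMC-1.1 overlapped both clones. Its log2 fold changes were -1.09 ± 0.05, -0.79 ± 0.05 and -0.95 ± 0.05 for clone 1, clone 2 and HMC-1.1 (adjusted p = 2.2e-12, 1.6e-10 and 1.5e-11). Clone 1 was lower than clone 2 by a difference under 1.5-fold (log2 -0.31 ± 0.05, adjusted p = 3.2e-05).

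The promoters of both chains are shown because IL2RG had the largest fold change of the 10 chains and IL2RA belongs to the same receptor. Windows of 300 bases, 250 before the RefSeq start site and 50 after it (RefSeq, GRCh38.p14), were found for 9 of the 10 chains, in 11 windows. Letters in capitals mark matches, on either strand, to the STAT motif TTCNNNGAA, the GATA motif AGATAA, the AP-1 motif TGANTCA or the ETS motif AGGAAG. These stand in 7.7%, 10.3%, 7.7% and 33.7% of 34961 promoter windows, and no matches overlap in the windows printed. The IL2RA window, chr10:6062318-6062617 on the minus strand, held 1 ETS match at position -37 from the start site. The IL2RG window, chrX:71111528-71111827 on the minus strand, held none of these letters.
IL2RA: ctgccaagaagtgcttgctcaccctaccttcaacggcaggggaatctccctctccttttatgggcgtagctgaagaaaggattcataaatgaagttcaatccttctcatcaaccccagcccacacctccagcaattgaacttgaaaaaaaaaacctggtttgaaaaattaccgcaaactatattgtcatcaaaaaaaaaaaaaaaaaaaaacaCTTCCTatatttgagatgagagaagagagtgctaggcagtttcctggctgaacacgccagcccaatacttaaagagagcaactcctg
IL2RG: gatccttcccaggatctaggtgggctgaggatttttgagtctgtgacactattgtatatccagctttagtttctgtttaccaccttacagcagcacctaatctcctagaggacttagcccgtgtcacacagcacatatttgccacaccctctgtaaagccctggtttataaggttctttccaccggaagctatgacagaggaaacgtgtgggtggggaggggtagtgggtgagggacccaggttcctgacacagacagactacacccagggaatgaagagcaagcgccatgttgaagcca

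IL2RB, the beta chain shared by the IL-2 and IL-15 receptors, was lower as well, and most so in clone 2. It gave 30.9, 29.1 and 30.7 FPKM in HMC-1.2 and 3.45, 3.59 and 3.39 for clone 2. HMC-1.1 had 15.3, 14.01 and 14.1 FPKM and clone 1 had 14.8, 13.4 and 14.75. These 2 groups overlapped, below HMC-1.2 and above clone 2. The log2 fold change against HMC-1.2 was -3.13 ± 0.05 for clone 2 (adjusted p = 1.1e-17), -1.18 ± 0.05 for clone 1 (adjusted p = 7.2e-13) and -1.15 ± 0.05 for HMC-1.1 (adjusted p = 1.1e-12). The proportions of these chains, given as a description with no test, differed most between HMC-1.2 and the other groups for IL2RG and between clone 2 and the other groups for IL2RB. The ratio of IL2RA to IL2RG in FPKM was 3.73 ± 0.289 (SD, n = 3) for HMC-1.2, 35.3 ± 7.47 for HMC-1.1, 22.8 ± 4.55 for clone 1 and 26.7 ± 8.25 for clone 2. The ratio of IL2RA to IL2RB was 2.19 ± 0.0596 for HMC-1.2, 2.56 ± 0.234 for HMC-1.1, 2.40 ± 0.0631 for clone 1 and 11.8 ± 0.551 for clone 2.

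**Figure D2:**
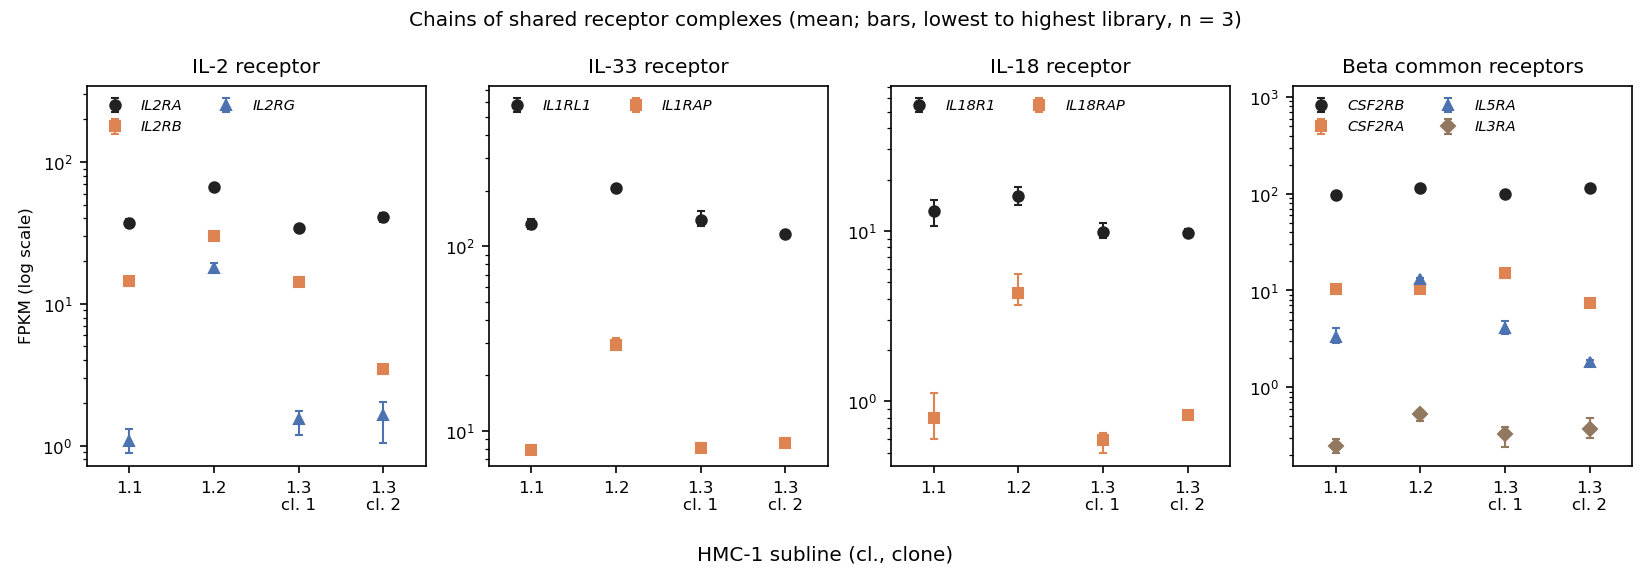
Mean FPKM (log axis) of chains that share a receptor complex in the 4 HMC-1 sublines, with bars from the lowest to the highest of 3 libraries. IL2RG, IL1RAP and IL18RAP are highest in HMC-1.2, IL2RB and IL5RA are lowest in clone 2, and CSF2RB varies least among the chains drawn.

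IL7R, which binds IL-7 and, with CRLF2, thymic stromal lymphopoietin (TSLP), was expressed at a low level and was highest in HMC-1.2. The FPKM were 4.94, 4.47 and 5.46 for HMC-1.2, 2.59, 2.56 and 2.83 for HMC-1.1, 2.59, 2.67 and 2.42 for clone 1 and 3.26, 3.51 and 3.37 for clone 2. Clone 2 lay between HMC-1.2 and the other groups without overlap. The log2 fold change was -1.06 ± 0.07 for clone 1 (adjusted p = 3.4e-10) and -0.95 ± 0.06 for HMC-1.1 (adjusted p = 1.5e-09). In clone 2 it was -0.59 ± 0.06 (adjusted p = 4.7e-07), just beyond 1.5-fold. That call was lost, at a fold just under 1.5, without HMC-1.2 replicate 1 (-0.58) or 3 (-0.57) and without clone 2 replicate 1 (-0.58) or 3 (-0.55). CRLF2, the partner chain, had 9 to 32 counts per library and was lower than in HMC-1.2 in all 3 comparisons (log2 -1.19, -1.2 and -1.52). IL7, the ligand, was called higher in clone 1 (log2 0.65 ± 0.07, adjusted p = 4.0e-07), and had values under 1.5-fold in clone 2 (0.58 ± 0.07) and HMC-1.1 (0.45 ± 0.07).

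IL4R, the alpha chain of both IL-4 receptors, was among the steadier chains. It had 34.5, 33.5 and 34.9 FPKM in HMC-1.2, 27.7, 28.1 and 27.7 for HMC-1.1, 30.2, 29.4 and 29.7 for clone 1 and 35.0, 34.5 and 35.7 for clone 2. Clone 2 overlapped HMC-1.2, and HMC-1.1 and clone 1 lay below both. Its log2 fold changes were -0.26 ± 0.04 for clone 1, -0.03 ± 0.03 for clone 2 and -0.36 ± 0.04 for HMC-1.1, all under 1.5-fold, with adjusted p = 6.6e-06, 0.49 and 1.7e-07. IL13RA1, with which IL4R forms the receptor shared by IL-4 and IL-13, had log2 values of -0.08 ± 0.05, 0.29 ± 0.04 and -0.09 ± 0.05, all under 1.5-fold. IL13RA2, a second IL-13 receptor with little signaling of its own, was called higher in all 3 comparisons (log2 2.16, 1.08 and 1.54) from 6 to 65 counts per library.

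IL9R, the private chain of the IL-9 receptor, was the only 1 of the 10 chains called higher. Its X identifier had 8.47, 8.60 and 10.5 FPKM in HMC-1.2. HMC-1.1 had 21.5, 21.7 and 22.3 FPKM, clone 1 had 22.1, 22.6 and 25.25, and clone 2 had 21.4, 21.1 and 21.55. The 9 other libraries stood above HMC-1.2 and close to each other. The log2 fold change was 1.5 ± 0.05 for clone 1 (adjusted p = 1.1e-13), 1.42 ± 0.05 for clone 2 (adjusted p = 2.3e-13) and 1.46 ± 0.05 for HMC-1.1 (adjusted p = 1.7e-13). Among HMC-1.1 and the clones the differences of IL9R were under 1.5-fold. The gene spans chrX:155997696-156010817 of GRCh38, and AJ271736.10, a long noncoding RNA on the same strand, overlaps it with 5.67 to 60.5 counts. The rise was called also with these counts added, and with the X and Y identifiers summed. IL9R is shown by its promoter since it was the chain called higher, at chrX:155997446-155997745 on the plus strand, with 1 GATA match at -29 and 1 AP-1 match at -21.
IL9R: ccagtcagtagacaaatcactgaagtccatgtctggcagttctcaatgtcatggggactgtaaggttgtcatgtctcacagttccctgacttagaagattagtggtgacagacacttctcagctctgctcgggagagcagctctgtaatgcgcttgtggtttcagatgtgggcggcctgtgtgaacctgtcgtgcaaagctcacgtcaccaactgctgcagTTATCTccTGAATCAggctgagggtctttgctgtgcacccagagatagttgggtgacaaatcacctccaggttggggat

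IL1RL1 had the highest mean FPKM of the 10 chains in every group, and its own level was highest in HMC-1.2. The libraries gave 204, 204 and 209 FPKM in HMC-1.2 and 133, 140 and 124 for HMC-1.1. Clone 1 had 133, 128 and 154 FPKM and clone 2 had 118, 116 and 115. HMC-1.2 stood apart from all others, and clone 2 lay below every library of HMC-1.1 and clone 1. Its log2 fold changes were -0.67 ± 0.03 for clone 1 (adjusted p = 1.1e-11), -0.92 ± 0.03 for clone 2 (adjusted p = 1.9e-13) and -0.75 ± 0.03 for HMC-1.1 (adjusted p = 3.1e-12). The gene makes a membrane and a soluble form of ST2, which the gene-level counts do not separate. RefSeq places its start at more than 1 site, and the upstream window, chr2:102311313-102311612 on the plus strand, is shown because it also holds the annotated start of IL18R1 in Gencode 44. It held 1 GATA match at -224 and 1 ETS match at 29.
IL1RL1: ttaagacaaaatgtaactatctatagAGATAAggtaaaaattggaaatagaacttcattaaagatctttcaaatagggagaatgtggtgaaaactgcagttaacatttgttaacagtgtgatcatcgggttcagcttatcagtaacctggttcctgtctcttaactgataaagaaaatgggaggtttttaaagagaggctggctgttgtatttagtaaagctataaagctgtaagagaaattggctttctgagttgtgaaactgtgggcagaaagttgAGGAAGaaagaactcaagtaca

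IL1RAP, the accessory chain of IL1RL1, had a larger fold change than its partner. It had 28.2, 27.9 and 31.7 FPKM in HMC-1.2, 8.08, 8.06 and 7.61 for HMC-1.1, 8.56, 7.67 and 7.96 for clone 1 and 8.87, 8.34 and 8.58 for clone 2. The log2 fold change was -2.01 ± 0.04, -1.84 ± 0.04 and -1.98 ± 0.04 for clone 1, clone 2 and HMC-1.1 (adjusted p = 1.9e-16, 4.1e-16 and 1.9e-16). The ratio of IL1RL1 to IL1RAP in FPKM was 7.04 ± 0.381 for HMC-1.2, 16.7 ± 0.594 for HMC-1.1, 17.2 ± 1.99 for clone 1 and 13.6 ± 0.346 for clone 2 (SD, n = 3). IL33, the ligand, had 0 counts in all 12 libraries.

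IL18R1, the chain that binds IL-18, was lower in both clones than in HMC-1.2. It gave 14.1, 16.0 and 18.1 FPKM in HMC-1.2 and 10.7, 15.2 and 13.4 for HMC-1.1, which overlapped in FPKM although not in CPM. Clone 1 had 9.31, 9.12 and 11.2 FPKM and clone 2 had 9.18, 9.77 and 10.3, all below HMC-1.2. Its log2 fold change was -0.76 ± 0.11 for clone 1 (adjusted p = 9.6e-06) and -0.76 ± 0.11 for clone 2 (adjusted p = 1.4e-05). In HMC-1.1 it was -0.40 ± 0.10 (adjusted p = 0.0037), under 1.5-fold and not called. IL18RAP, its accessory chain, was lower too, with log2 fold changes of -2.76 ± 0.15 for clone 1, -2.34 ± 0.14 for clone 2 and -2.50 ± 0.14 for HMC-1.1, from 245 to 311 counts in HMC-1.2 and 45 to 77 elsewhere. The ratio of IL18R1 to IL18RAP in FPKM was 3.82 ± 0.548 for HMC-1.2 and 17.3 ± 5.06, 16.8 ± 1.98 and 11.8 ± 0.936 for HMC-1.1, clone 1 and clone 2. IL18, the ligand, rose in clone 1 (log2 0.98 ± 0.05, adjusted p = 6.9e-11) and HMC-1.1 (0.84 ± 0.05, adjusted p = 6.6e-10), and had a value under 1.5-fold in clone 2 (0.56 ± 0.05). SIGIRR, an inhibitory member of the family, was lower in all 3 (log2 -0.80, -1.21 and -1.1).

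CSF2RA, the alpha chain of the GM-CSF receptor, was the only 1 of the 10 chains that differed between the HMC-1.3 clones beyond 1.5-fold. The X identifier had 10.2, 10.4 and 10.5 FPKM in HMC-1.2 and 10.0, 10.7 and 10.7 for HMC-1.1. Clone 1 had 15.2, 15.15 and 14.7 FPKM and clone 2 had 7.46, 7.17 and 7.65. HMC-1.1 overlapped HMC-1.2, while every clone 1 library lay above and every clone 2 library below them. Against HMC-1.2 the log2 fold change was 0.49 ± 0.05 for clone 1 (adjusted p = 2.8e-07) and -0.47 ± 0.05 for clone 2 (adjusted p = 1.4e-06), both under 1.5-fold, and 0.01 ± 0.05 for HMC-1.1 (adjusted p = 0.89). Between the clones the difference was 0.96 ± 0.05 (adjusted p = 1.6e-10), and 1 of the 10 chains was called in that comparison, against 12.6% of all genes.

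CSF2RB was the second most abundant chain in HMC-1.1, HMC-1.2 and clone 1, and overlapped IL1RL1 in clone 2. It gave 115, 109 and 118 FPKM in HMC-1.2, 97.6, 97.3 and 93.4 for HMC-1.1, 102, 97.7 and 102 for clone 1 and 112, 116 and 117 for clone 2. Clone 2 overlapped HMC-1.2, and the other groups lay below. The log2 fold changes were -0.24 ± 0.03, -0.01 ± 0.03 and -0.28 ± 0.03 for clone 1, clone 2 and HMC-1.1, with adjusted p = 4.7e-06, 0.76 and 7.3e-07. None reached 1.5-fold.

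IL3RA was near the limit of detection, with 11 to 30.5 counts per library for the X identifier. The FPKM were 0.56, 0.45 and 0.58 for HMC-1.2, 0.24, 0.21 and 0.29 for HMC-1.1, 0.39, 0.35 and 0.24 for clone 1 and 0.34, 0.48 and 0.30 for clone 2. HMC-1.2 stood above HMC-1.1 and clone 1 and overlapped clone 2. Its log2 fold change was -1.14 ± 0.32 for HMC-1.1 (adjusted p = 0.0063), -0.80 ± 0.31 for clone 1 (adjusted p = 0.035) and -0.66 ± 0.30 for clone 2 (adjusted p = 0.086, not called). The clone 1 call was lost in DESeq2 (adjusted p = 0.075), without HMC-1.2 replicate 1 (0.092) or 3 (0.094), and without clone 1 replicate 2 (0.073) or 3 (0.13). It was lost as well with no filter on low counts (0.093), with glmTreat, which tests against 1.5-fold (0.53), and in limma, where the log2 values of -0.21 with a pseudocount of 1 and -0.57 with 0.1 were under 1.5-fold. The HMC-1.1 call was lost with glmTreat (adjusted p = 0.13) and in limma on log2(FPKM + 1) (log2 -0.29), a scale that understates changes of low genes. The clone 2 difference passed instead with the X and Y identifiers summed (log2 -0.68, adjusted p = 0.040) and without clone 2 replicate 2 (adjusted p = 0.041). Its promoter is shown because its 3 STAT matches, at -199, -179 and 13, are the most of any window of the chains. It lies at chrX:1336535-1336834 on the plus strand.
IL3RA: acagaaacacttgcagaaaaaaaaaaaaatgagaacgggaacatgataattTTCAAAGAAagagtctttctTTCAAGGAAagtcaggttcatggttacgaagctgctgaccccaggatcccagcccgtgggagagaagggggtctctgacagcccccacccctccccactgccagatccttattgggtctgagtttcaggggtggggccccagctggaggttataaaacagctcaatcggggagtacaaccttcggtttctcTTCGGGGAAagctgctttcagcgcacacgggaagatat

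IL5RA, which pairs with CSF2RB for IL-5, had larger fold changes than CSF2RA and IL3RA. It had 13.3, 12.2 and 13.5 FPKM in HMC-1.2, 2.89, 4.10 and 2.84 for HMC-1.1, 3.97, 3.56 and 4.86 for clone 1 and 1.64, 1.93 and 1.91 for clone 2. HMC-1.2 stood above all and clone 2 below all other libraries. The log2 fold change was -1.73 ± 0.07 for clone 1, -2.99 ± 0.08 for clone 2 and -2.11 ± 0.07 for HMC-1.1 (adjusted p = 1.3e-12, 3.9e-15 and 1.4e-13). Thus the beta common chain varied by less than 1.5-fold across the sublines, while its partners differed in size and direction.

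**Figure D3:**
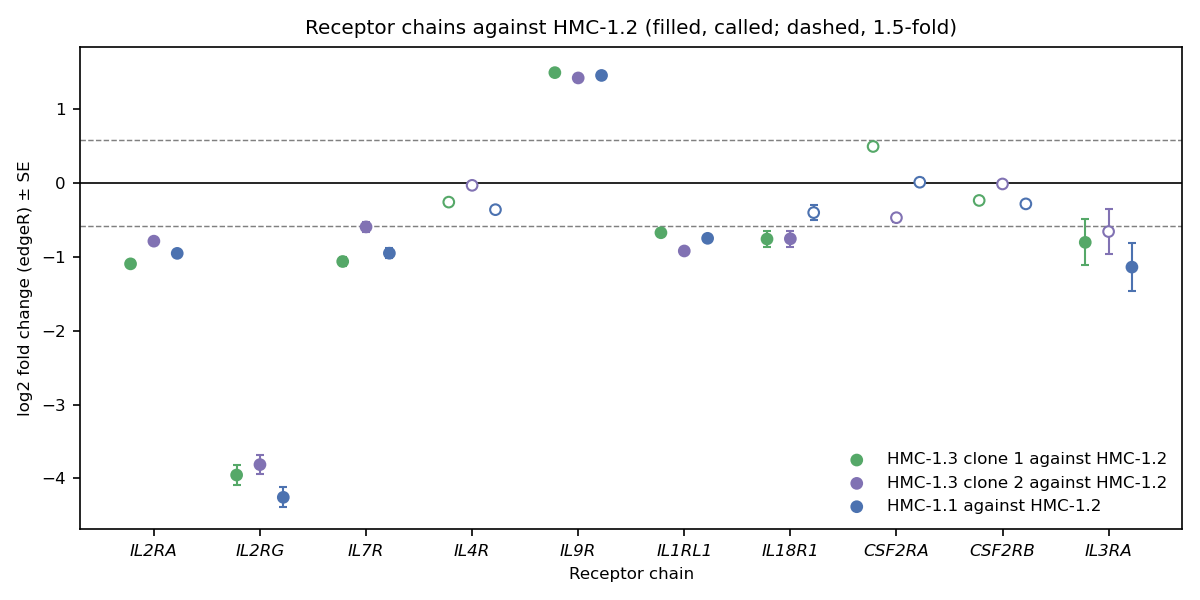
Log2 fold change against HMC-1.2 (edgeR, vertical axis) of the 10 chains in clone 1, clone 2 and HMC-1.1, with SE bars, filled where called, and with dashed lines at 1.5-fold. IL2RG lies between -4.26 and -3.81, IL9R between 1.42 and 1.5, and CSF2RA on opposite sides of 0 in the clones.

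Against HMC-1.1, neither clone differed from it in any of the 10 chains by the threshold used. In clone 1, 0 of 10 chains were called by edgeR, where 1.01% of all genes were called, with 5 at an unadjusted p under 0.05 and 3 at an adjusted p under 0.05. In clone 2, 0 of 10 were called, where 8.19% of all genes were, with 8 at an unadjusted and 7 at an adjusted p under 0.05. These percentages are for the threshold with 1.5-fold, and the share of all genes at a p limit alone was not counted. DESeq2 and limma on log2(FPKM + 1) also called 0 in both comparisons. The differences ran from -0.36 to 0.48 on the log2 scale in clone 1 and from -0.48 to 0.48 for clone 2, so that small differences were measured although none reached 1.5-fold.

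By FPKM of 1 identifier per gene, the order of levels began with IL1RL1, CSF2RB, IL2RA and IL4R in every group and ended with IL3RA. In clone 2, IL1RL1 and CSF2RB did not differ beyond their spread (116.5 ± 1.63 and 115 ± 2.53 FPKM, SD, n = 3). In HMC-1.2, IL2RG and IL18R1 overlapped, as did CSF2RA and IL9R, and in HMC-1.1 IL18R1 and CSF2RA overlapped. IL2RG followed IL4R in HMC-1.2 and came last but for IL3RA in the other 3 groups. With X and Y identifiers summed, IL9R had 43.6 ± 0.798 FPKM in HMC-1.1, 46.6 ± 3.42 for clone 1 and 42.7 ± 0.406 for clone 2 and came before IL2RA, which it overlapped in clone 2. In HMC-1.2 the sum for IL9R was 18.4 ± 2.30 and overlapped those of CSF2RA and IL2RG.

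Across the other chains of these families, 11 of 13 were tested and 7 were called in each comparison with HMC-1.2, against 20.0%, 16.5% and 17.6% of all genes for clone 1, clone 2 and HMC-1.1. In each, 1 was higher (11.8%, 7.98% and 10.1% of all genes) and 6 were lower (8.18%, 8.51% and 7.52%). The chains called lower were IL2RB, IL5RA, CRLF2, IL1RAP, IL18RAP and SIGIRR in all 3 comparisons, and IL13RA2 was the chain called higher. The median log2 fold change of these 11 chains was -0.80, -1.2 and -1.1 for clone 1, clone 2 and HMC-1.1. IL21R, the IL-21 receptor, stayed under 1.5-fold against HMC-1.2 (log2 0.50, -0.46 and 0.25). IL1R2 and IL1RL2 had at most 3 and 0 counts.

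Few ligands were expressed. Of 13 ligands, 4 were tested, and IL2, IL9, IL21, IL33 and TSLP had 0 counts in all libraries, while IL3, IL5, IL13 and CSF2 had at most 6. A count of 0 allows up to 3 counts per library, by counting error alone. IL4, at 1 to 20 counts, was lower than in HMC-1.2 for clone 1 (log2 -1.21 ± 0.45, adjusted p = 0.030), clone 2 (-2.26 ± 0.51, adjusted p = 0.0014) and HMC-1.1 (-1.92 ± 0.49, adjusted p = 0.0033). IL15, which signals through IL2RB and IL2RG, was higher in clone 2 (log2 1.2 ± 0.29, adjusted p = 0.0026), at 56 to 81 counts. It had 12 to 34 counts in the other groups, with log2 values of -0.05 ± 0.32 for clone 1 and 0.04 ± 0.32 for HMC-1.1. In clone 1, 3 of the 4 tested ligands were called (20.0% of all genes), or 1 without HMC-1.2 replicate 1. In clone 2 it was 2 (16.5% of all genes), or 4 without HMC-1.2 replicate 2, and in HMC-1.1 it was 2 (17.6%).

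Most signal transducers stayed under 1.5-fold. All 14 were tested, and JAK3, the kinase bound to the common gamma chain, was the only 1 called, in clone 1 (log2 -0.62 ± 0.04, adjusted p = 2.1e-09). That is 1 of 14 where 20.0% of all genes were called, and DESeq2 called 2 of the 14 in clone 1, limma on log2(FPKM + 1) 0 and glmTreat 0. JAK3 was 19.1 ± 0.694 FPKM in HMC-1.2, 13.7 ± 0.847 for HMC-1.1, 12.6 ± 0.295 for clone 1 and 17.3 ± 0.6995 for clone 2 (SD, n = 3). In clone 2 and HMC-1.1, where 16.5% and 17.6% of all genes were called, 0 of 14 were called by edgeR. At an unadjusted p under 0.05 there were 10 and 9 of them, and at an adjusted p under 0.05 there were 9 in each. The share of all genes at a p limit alone was not counted. DESeq2 and limma on log2(FPKM + 1) also called 0. Without HMC-1.1 replicate 1, 1 was called in HMC-1.1, and without HMC-1.2 replicate 3, clone 1 replicate 1 or clone 1 replicate 3, 2 were called in clone 1. STAT5A, which transduces signals of the IL-2, IL-3 and GM-CSF receptors, was lower by less than 1.5-fold (log2 -0.58, -0.50 and -0.55).

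Among 10 feedback regulators and inhibitors, all of them tested, IRAK3, an inhibitor of the IL-1 receptor family's kinases, was higher than in HMC-1.2 for clone 1, clone 2 and HMC-1.1 (log2 0.98, 1.08 and 1.04). SOCS3, an inhibitor induced by STAT signals, was lower in clone 1 (-1.32 ± 0.11) and HMC-1.1 (-0.77 ± 0.10) and had a log2 value of 0.40 ± 0.10 for clone 2 (adjusted p = 0.0023), under 1.5-fold. PTPN2, a phosphatase of JAK1 and JAK3, was called lower in clone 2 (-0.92 ± 0.05, adjusted p = 1.9e-10) and had values of 0.12 ± 0.05 for clone 1 and 0.17 ± 0.05 for HMC-1.1. SOCS1 was called lower in clone 1 (-0.62 ± 0.07). In all, 3 of these 10 genes were called in clone 1, 2 for clone 2 and 2 for HMC-1.1, beside 20.0%, 16.5% and 17.6% of all genes.

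The nearest tested protein-coding genes were compared with each chain, up to 2 on either side. Without the chains themselves, 3 of 31 such neighbours were called in clone 1, 2 for clone 2 and 2 for HMC-1.1, where 20.0%, 16.5% and 17.6% of all genes were called. FOXO4 and MED12, which flank IL2RG, had log2 values of 0.18 and -0.35 for clone 1, 0.17 and -0.30 for clone 2 and 0.13 and -0.34 for HMC-1.1. NLGN3, beyond MED12, was called lower in clone 1 (-0.81, adjusted p = 0.0071) and had -0.03 for clone 2 and -0.18 for HMC-1.1. The readthrough gene RP5-1091N2.12 had -1.18, -1.40 and -1.98 for clone 1, clone 2 and HMC-1.1, from at most 26.3 counts, and was not called. Beside IL9R, VAMP7 had log2 values of 0.10, 0.07 and 0.02 for clone 1, clone 2 and HMC-1.1, and SPRY3 had -0.56, -0.15 and -0.10 (adjusted p = 0.17, 0.74 and 0.83). WASH6P, on the other side of IL9R, was higher than in HMC-1.2 like IL9R but by less than 1.5-fold (log2 0.51, 0.35 and 0.46, adjusted p = 2.4e-06, 0.00025 and 1.2e-05), and it belongs to a family of near-identical copies, so its counts are uncertain. On chromosome 2, IL1RL1, IL18R1 and IL18RAP lie in a row and were called lower together in both clones. They were lower in HMC-1.1 as well, where IL18R1 stayed under 1.5-fold (log2 -0.40). IL1R1 beside them had 4 to 15 counts, and MAP4K4 had log2 values of 0.09, 0.24 and 0.28 for clone 1, clone 2 and HMC-1.1. IL1RL1 (chr2:102311502-102352037) and IL18R1 (chr2:102311529-102398777) overlap on the plus strand, so the counting can divide reads between them. The other chains lie at chr10:6010689-6062370 (IL2RA), chr5:35852695-35879603 (IL7R), chr16:27313668-27364778 (IL4R), chr22:36913628-36940439 (CSF2RB), chrX:1268800-1310381 (CSF2RA) and chrX:1336616-1382689 (IL3RA). At the X and Y pseudoautosomal end, CRLF2 and IL3RA were lower than in HMC-1.2 for clone 1 and HMC-1.1, while CSF2RA between them was not called.

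**Figure D4:**
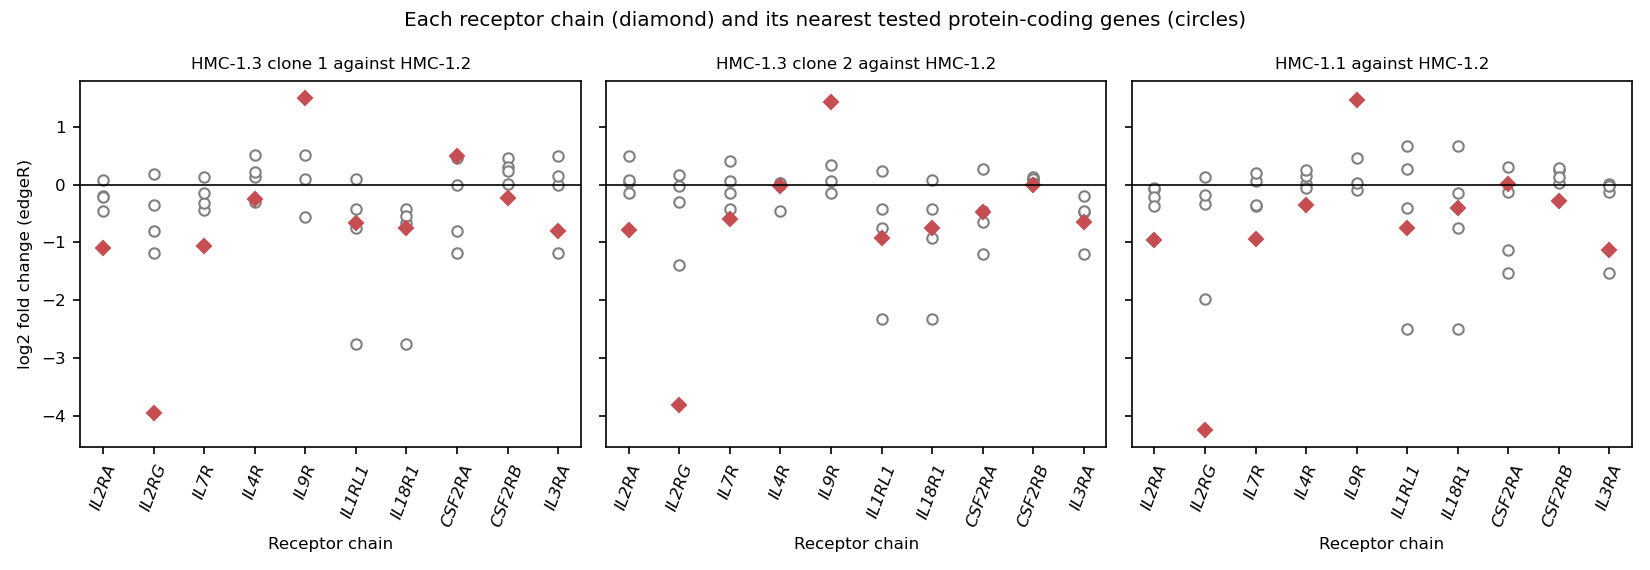
Log2 fold change against HMC-1.2 (edgeR, vertical axis) of each chain (diamonds) and of its nearest tested protein-coding genes (circles) for clone 1, clone 2 and HMC-1.1. IL2RG and IL9R lie beyond all of their neighbours, and IL18RAP lies below IL1RL1 and IL18R1.

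The genes most like each chain were taken by Pearson's r of log2 CPM over the 12 libraries, among 13100 genes, or 13101 for IL3RA. The 12 points share their groups, so r follows the group means and is given as a description. IL2RG was most like PLEK, ZNF100 and APLP1 (r = 0.993 to 0.995), IL9R like IL1RN, COL15A1 and DUSP4 (0.9975 to 0.9985), and IL1RL1 like RPS6KA5, RAB44 and RASGRP2 (0.995 to 0.998). IL2RA was most like TPM4, KRT19 and PLPPR2 (0.992 to 0.995) and IL7R like FAM32A, CCL2 and KCNK5 (0.992 to 0.994). CSF2RA was most like TXNIP, C20orf100 and ACAD8 (0.986 to 0.9875), CSF2RB like TGM2, PTPN5 and NR2F2 (0.978 to 0.980), and IL4R like IGFBP7, SRP68 and PTPN5 (0.973 to 0.982). IL18R1 was most like PROSER3, RP11-259P6.2 and GSE1 (0.950 to 0.968), and IL3RA like WDR53, LDB1 and C16orf54 (0.932 to 0.941). PTPN5 thus stood among the genes most like both IL4R and CSF2RB, the chains that were lower in HMC-1.1 and clone 1 than in HMC-1.2 and clone 2.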

How the data were processed

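Polyadenylated RNA of 12 cultures, 3 in each of 4 groups taken from the sample labels, was analysed. The deposited expected counts were made by the authors with RSEM 1.3.0, after trimming (cutadapt 2.10), alignment to hg38 (STAR 2.5.3) and marking of duplicates (Picard). They also deposited FPKM of the same 58381 identifiers. In the count table, 7.39% of values are not whole numbers, since reads that match several genes are divided among them. Counts were rounded and tested with edgeR 4.0.16 (R 4.3.3), with TMM factors, filterByExpr (15944 identifiers kept) and a model of the 4 groups. P-values were adjusted by Benjamini and Hochberg over all genes tested in each comparison. Log2 fold changes are given with an SE worked out from the fold change and the F statistic of edgeR's test, and FPKM with SD. Alternatives were DESeq2 1.42.0, RLE factors, 2 other filters (none, or a mean of at least 1 CPM), only the 2 groups compared, a replicate block, a covariate marking the 3 resent libraries, glmTreat, limma 3.58.1 on log2(FPKM + 1) and log2(FPKM + 0.1), pseudoautosomal identifiers summed, and each library left out. The word resent stands in the sample descriptions of HMC-1.2 replicate 1, clone 1 replicate 3 and clone 2 replicate 1, without its meaning. No HMC-1.1 library carries it. Adding overlapping genes and leaving out the 3 resent libraries together were chosen after seeing the data. Positions come from Gencode 44 on GRCh38 by identifier without version (99.0% matched, 58.9% in the same version), whereas the study names Gencode 39.

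The chains and gene lists were chosen with earlier results of these data known. All 10 chains are named. Of the other lists, genes are named where called against HMC-1.2 or where they are partners or ligands of a chain, with the 3 genes most alike and the 2 nearest tested protein-coding genes on each side. No pair of libraries within a group agreed within sampling noise. The fit was also run on counts simulated from its own estimates of spread, which cannot show whether those estimates hold for these libraries. Reads were not used here, so the KIT genotype was not checked.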

Additional observations from a re-analysis of the deposited data

Results flagged for a closer look

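The HMC-1.3 clones were both edited from HMC-1.2, and 12 genes of the chains and lists differed between them beyond 1.5-fold in a direct comparison with edgeR's quasi-likelihood test over all genes. CSF2RA was higher in clone 1 by 0.96 on the log2 scale (adjusted p = 1.6e-10), with 3 of 3 clone 1 libraries above every clone 2 library. IL2RB was higher in clone 1 by 1.95 (adjusted p = 3.7e-14), IL5RA by 1.26 (2.2e-09), IL13RA2 by 1.08 (0.0038) and IL21R by 0.97 (4.9e-10). PTPN2 was higher in clone 1 by 1.04 (adjusted p = 7.8e-11), as were the granule gene PRG2 by 1.78 (4.9e-12) and the prostaglandin synthase gene HPGDS by 1.52 (1.5e-07). IL15 was lower in clone 1, with a log2 difference of -1.25 (adjusted p = 0.0016), as were SOCS3 with -1.73 (6.9e-10), CISH, a STAT5-induced inhibitor, with -0.67 (2.6e-09) and FCER1A with -2.95 (2.2e-06), the last from at most 46 counts. By list, these were 1 of 10 chains, 4 of 11 other chains of the families, 1 of 4 ligands and 0 of 14 signal transducers. They were also 3 of 10 feedback regulators and inhibitors, 2 of 9 mast cell markers and 1 of 3 granule genes tested. Each clone is 1 isolate, and 12.6% of all genes tested were called between them.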

How the results depend on the processing

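Over the 10 chains and 4 comparisons (the 3 with HMC-1.2 and clone 1 against clone 2), 756 recomputed values under 13 other settings and 12 leave-one-out settings gave 710 with the same direction and side of the threshold, 24 that were no longer called, 2 newly called and 20 of opposite sign. The number of chains called stayed within 1.5 times in all 6 comparisons. With the replicate block it was 7, 6 and 6 against HMC-1.2, 0 and 0 against HMC-1.1 and 1 between the clones. The replicate numbers did not pair the samples (r of deviations between -0.0369 and 0.0954 for the 18 same-numbered pairs). All 20 sign changes were of differences that were not called. IL4R in clone 2 turned to 0.0304 and 0.0312 under the limma settings, and CSF2RB in clone 2 to 0.0156 and 0.0157. CSF2RB gave 0.0115 without the 3 resent libraries and -0.0393 to 0.00684 with each library left out. IL18R1 between the clones was 0.00246 at a mean of at least 1 CPM, 0.0139 and 0.0148 in limma and 0.00175 with only the 2 groups, and -0.121 to 0.0427 with a library left out. With a library left out, CSF2RA in HMC-1.1 ran from -0.00878 to 0.0237, and between the clones IL2RG ran from -0.281 to 0.0220 and IL3RA from -0.329 to 0.115. The cause was not tested. IL3RA dropped out at a mean of at least 1 CPM, and glmTreat no longer called IL18R1 in either clone (adjusted p = 0.13 and 0.15), IL7R in clone 2 (1.0) or IL3RA in clone 1 (0.53) and HMC-1.1 (0.13). IL7R in clone 2 ran from -0.65 to -0.44 and was called in some settings only. Limma on FPKM no longer called IL1RL1 (-0.57 and -0.58) or IL3RA (-0.21 and -0.57) in clone 1, nor IL3RA in HMC-1.1 on log2(FPKM + 1) (-0.29). IL3RA in clone 2 was called with both identifiers summed (adjusted p = 0.040). Without the 3 resent libraries, left out together after seeing the data, IL3RA in clone 1 (adjusted p = 0.24) and IL7R in clone 2 (-0.56) were not called. Counts called in the other lists moved by more than 1.5 times in 18 of 228 recomputed cases. The results for IL3RA rest on few counts, and mRNA was measured, not protein.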
